A study of Callithrix jacchus with 6 samples.

Results

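Mature oligodendrocytes were examined in single-cell RNA libraries of the hippocampus of aged common marmosets (Callithrix jacchus), a small primate. A cell barcode was counted as a mature oligodendrocyte when at least 3 of the 8 genes ST18, MOG, OPALIN, RNF220, TMEM144, MAL, SLC5A11 and ANLN were detected, when these genes together made up at least 20 of every 10000 of its unique molecular identifiers (UMIs, each standing for a captured RNA molecule), and when PDGFRA, ALDH1L1, GAD2 and SLC17A7 together had at most 1 UMI. This rule kept 7888 of 46582 barcodes (16.9%). The 3 control libraries came from animals given oxygen and the 3 sevoflurane libraries from animals given sevoflurane, a volatile general anaesthetic, in each case for 6 h. The labels state no age beyond "aged", no sex, and not whether the 3 libraries of a group came from different animals, so every p-value below measures the spread between these libraries. The hippocampi were digested with collagenase, kept frozen as cell suspensions and run on 10x Genomics 3' chemistry, and the labels mention no sort for a cell type.

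Oligodendrocytes wrap axons of the central nervous system in myelin, a stack of lipid-rich membrane that speeds conduction, and they supply the wrapped axon with metabolites. They arise from precursors (OPCs) marked by PDGFRA, pass through a newly formed stage and then express the genes of compact myelin and its lipid enzymes. Mature cells are not uniform, and OPALIN, a membrane glycoprotein of myelinating cells, and SLC5A11, a sodium-coupled inositol transporter, are markers of theirs that not every mature cell shows.

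The library totals ran from 41164947 to 47886816 UMIs, and the oligodendrocytes were shallow cells. Their median was 1866.5 UMIs per cell (range 501 to 28441), against 4796 in all other barcodes. Control replicates 1 to 3 held 1466, 1405 and 1018 oligodendrocytes, which was 17.8%, 19.6% and 12.5% of their barcodes, and sevoflurane replicates 1 to 3 held 1597, 1057 and 1345, which was 18.6%, 14.4% and 18.9%. The groups overlapped, and their mean shares of 16.6% and 17.3% differed by 0.706 percentage points (exact permutation test over the 20 arrangements of the libraries, two-sided p = 0.7; 3 against 3 libraries cannot give a p below 0.1). Doublet scoring marked 340 of the oligodendrocytes (4.31%), and any pair of libraries shared 13 to 27 of all barcodes and 0 to 3 oligodendrocyte barcodes. Across genes, the summed oligodendrocyte profiles of the libraries correlated with a mean of 0.929 for sevoflurane replicate 3, 0.940 for sevoflurane replicate 2 and 0.955 to 0.960 for the others, as a description.

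Several myelin genes that the rule did not use were higher in these cells than in neurons. MBP, the basic protein that compacts the myelin sheath, stood at 2285 to 2767 CPM (counts scaled to the same UMI total in each library sum) over the 6 libraries, against 59.5 to 97.3 CPM in a neuron set defined in the same libraries by 8 neuronal genes. CLDN11, the tight-junction protein of the sheath, stood at 197 to 293 CPM against 2.83 to 7.16 CPM. MAG, an adhesion protein at the axon face, stood at 147 to 208 CPM and CNP, an enzyme of the myelin cytoplasm, at 17.0 to 30.9 CPM. Among the rule genes, ST18 was detected in 98.3% of the cells, RNF220 in 96.0%, MOG in 88.4%, MAL in 69.4%, TMEM144 in 54.4% and ANLN in 33.6%.

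Cells near the limits of the rule differed in depth. The 123 cells with 20 to 30 marker UMIs per 10000 had a median depth of 5974 UMIs, the 115 cells just outside (10 to 20 per 10000) had 6568, and all oligodendrocytes had 1866.5. The 451 cells with 3 detected markers had a median of 1247 UMIs and the 168 cells with 2 had 998. The 2358 cells with 1 UMI of the exclusion genes had 1940 and the 681 cells with 2 had 2198. These values describe the rule and were not tested.

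Genes of other cell types were also present. The 10 OPC markers summed to 413 to 694 CPM in the oligodendrocytes, against 15502 to 18512 CPM in the OPC set, and the 12 microglial markers to 60.2 to 129 CPM. The 11 neuronal markers in the files summed to 1012 to 1225 CPM, against 3057 to 3295 CPM in the neuron set. They summed to 949 to 1154 CPM in the OPC set and 726 to 942 CPM in the astrocyte set. Of the oligodendrocytes, 176 also met the rule of the neuron set. Of the 10 fibroblast, ependymal and choroid markers, which summed to 83.0 to 317 CPM, the ciliary gene FOXJ1 was at 0. Of the lists for other cell types, the 11 astrocyte markers had sums that did not overlap between groups: 1025 to 1176 CPM in the control oligodendrocytes and 611 to 983 CPM in the sevoflurane oligodendrocytes, against 14167 to 16132 CPM in the astrocyte set. None of these 11 was at 0. The 11 markers of newly formed oligodendrocytes also did not overlap, at 2033 to 2146 CPM in the controls and 1814 to 1952 CPM after sevoflurane. They summed to 1705 to 1869 CPM in the OPC set and 2047 to 2634 CPM in the astrocyte set. This sum is therefore not specific to newly formed cells. The part of these lists in the treatment results below was not tested.

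OPALIN-positive and SLC5A11-positive cells were set side by side. Of the 7888 oligodendrocytes, 2570 (32.6%) had UMIs of both genes, 740 (9.38%) of OPALIN only, 3508 (44.5%) of SLC5A11 only and 1070 (13.6%) of neither. Their median depths were 2111.5, 1761, 1838 and 1513 UMIs in the same order, so that detection of both genes went with depth. To compare cells at 1 depth, each was thinned to 1000 UMIs at random, and the 21 to 119 cells per library below that depth were left out.

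At 1000 UMIs, OPALIN was detected in 25.5%, 27.4% and 21.8% of oligodendrocytes in control replicates 1 to 3 and in 23.1%, 25.2% and 27.2% in sevoflurane replicates 1 to 3. The groups overlapped, with means of 24.9% ± 2.84 and 25.2% ± 2.03 (SD, n = 3 each). In the neuron set thinned in the same way the means were 0.313% and 0.241%, which served as background.

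SLC5A11 was detected at 1000 UMIs in 67.4%, 77.9% and 73.4% of control oligodendrocytes and in 63.7%, 65.4% and 58.1% of sevoflurane oligodendrocytes. All 3 sevoflurane libraries lay below all 3 controls, with means of 72.9% ± 5.30 and 62.4% ± 3.82 (SD, n = 3 each), a difference of -10.5 percentage points. With cells thinned to 2000 UMIs, which leaves fewer cells, the groups overlapped: 82.3%, 89.2% and 86.5% in the controls and 80.1%, 83.0% and 72.7% after sevoflurane, a difference of -7.44 points. Without thinning the means were 82.0% and 72.5%. The background means in the astrocyte set were 2.93% and 2.48%, and in the neuron set 1.21% and 1.56%. Summed over cells, SLC5A11 stood at 1702, 2243 and 1871 CPM in the controls and 1527, 1523 and 1255 CPM after sevoflurane, while OPALIN stood at 279, 303 and 226 CPM against 253, 296 and 285 CPM. SLC5A11 was not alone among the 8 rule genes. RNF220 was also lower without overlap, at 3094, 3267 and 3413 CPM in the controls and 2869, 2739 and 2353 CPM after sevoflurane. Of the 8, these 2 were lower without overlap, none was higher without overlap, and 3 had a positive fold change. All of these genes belong to the rule that chose the cells, so these values are given with no test.

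**Figure D1:**
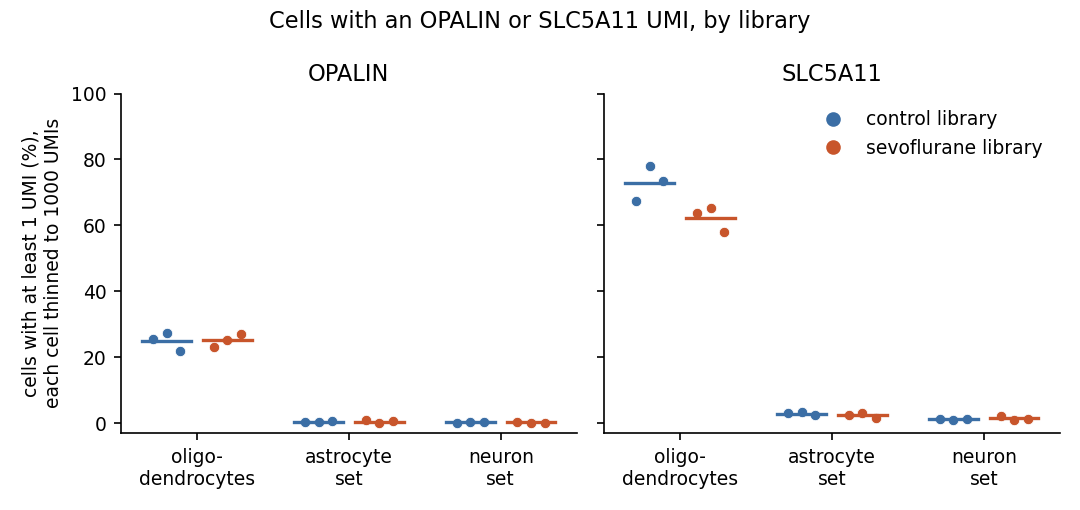
Percent of cells with at least 1 UMI of OPALIN (left) or SLC5A11 (right) after every cell was thinned to 1000 UMIs, in the oligodendrocytes and, as background, in the astrocyte and neuron sets; each point is a library and each bar the mean of 3. For SLC5A11 the sevoflurane oligodendrocytes (58.1% to 65.4%) lie below the controls (67.4% to 77.9%), whereas for OPALIN the groups overlap.

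Co-detection within a library is given as a description, since both genes count toward the 3 markers that chose the cells. At 1000 UMIs SLC5A11 was found in 58.1% to 75.9% of the OPALIN-positive cells and in 58.1% to 78.7% of the other cells. The share was lower in the OPALIN-positive cells in control replicates 1 to 3 (64.7% against 68.3%, 75.9% against 78.7% and 66.7% against 75.3%) and in sevoflurane replicates 1 and 2 (60.8% against 64.5% and 64.7% against 65.6%), and was 58.1% in both kinds of cell in sevoflurane replicate 3.

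Cells with OPALIN only and cells with SLC5A11 only differed in other genes. Their UMIs were summed per library (71 to 177 and 457 to 751 cells) and compared within libraries with edgeR's quasi-likelihood test, a gene being called at a Benjamini-Hochberg adjusted p under 0.05. Of 9265 genes tested, with the rule genes left out, 163 differed (1.76%): 71 were higher in OPALIN-only cells (0.766%) and 92 in SLC5A11-only cells (0.993%). The sign was the same in all 6 libraries for 551 genes (5.95%). At an unadjusted p under 0.05 stood 837 genes (9.03%). DESeq2 called 87 genes (1.64% of those it tested), all among the 163, and edgeR with no filter on low counts 184 (0.86%). With cells thinned to 1000 UMIs before the kinds were set, 77 genes were called (0.469% higher and 0.625% lower in OPALIN-only cells), 63 of them among the 163, and with at least 2 UMIs required of the detected gene 73 were called, 63 of them among the 163.

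Among the genes higher in OPALIN-only cells, EYA1 had the largest difference of those named. EYA1, a transcriptional coactivator with phosphatase activity, stood at 145, 94.0 and 59.5 CPM (controls) and 89.7, 60.0 and 72.0 CPM (sevoflurane) in OPALIN-only cells, against 52.6, 18.5 and 40.5 CPM and 39.9, 12.8 and 21.6 CPM in SLC5A11-only cells of the same libraries. It was higher in OPALIN-only cells in 6 of 6 libraries (log2 difference 1.52 ± 0.19 SE, edgeR adjusted p = 5.07e-08). FRY, which organises microtubules, averaged 800 ± 172 CPM (SD over 6 libraries) against 474 ± 142 CPM (log2 0.77 ± 0.08, edgeR adjusted p = 8.46e-11).

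Among adhesion molecules, CNTN1, a contactin of axon-glia contacts, averaged 280 ± 110 against 151 ± 35.6 CPM (log2 0.90 ± 0.11, edgeR adjusted p = 1.69e-08). The protocadherins PCDH7 (604 against 367 CPM, log2 0.75 ± 0.08) and PCDH11X (283 against 158 CPM, log2 0.85 ± 0.10) also passed. SEMA3E, a secreted guidance factor, averaged 706 against 437 CPM (log2 0.70 ± 0.08). DYSF, dysferlin, a membrane-repair protein, averaged 262 ± 36.3 CPM in OPALIN-only cells (log2 0.70 ± 0.11). Further genes higher on this side were RANBP17 (log2 1.00 ± 0.15), LRP4, a receptor known from the neuromuscular junction (log2 0.77 ± 0.15), ARHGAP24, a Rac-inactivating protein (log2 0.68 ± 0.10), and BCR (log2 0.71 ± 0.15). LRP4 lost its call when 2 UMIs were required, and BCR under that setting and under thinning. MUSK, the kinase that partners LRP4 in muscle, was called (log2 0.69 ± 0.13) but ranged from 42.9 to 902 CPM in OPALIN-only cells, the highest value being sevoflurane replicate 3, and its call was lost under thinning (log2 0.50).

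The SLC5A11-only side was led by GSN, gelsolin, which severs actin filaments. GSN stood at 249, 226 and 223 CPM (controls) and 200, 161 and 91.8 CPM (sevoflurane) in SLC5A11-only cells, against 66.7, 76.4 and 96.8 CPM and 66.3, 19.99 and 36.0 CPM in OPALIN-only cells. It was lower in OPALIN-only cells in 6 of 6 libraries (log2 -1.67 ± 0.16, edgeR adjusted p = 7.85e-12). Further genes higher in SLC5A11-only cells were THSD7B (124 against 42.1 CPM, log2 -1.63 ± 0.19), PLEKHG1 (130 against 45.1 CPM, log2 -1.44 ± 0.17), USP31, a ubiquitin protease (184 against 85.8 CPM, log2 -1.16 ± 0.14), and EYA4, a paralogue of EYA1 (123 against 53.9 CPM, log2 -1.17 ± 0.17). EYA1 and EYA4 thus lay on opposite sides.

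ENPP6, a choline phosphodiesterase that is known as a marker of newly forming oligodendrocytes, averaged 61.7 ± 9.35 CPM in SLC5A11-only and 27.0 ± 13.5 CPM in OPALIN-only cells (log2 -1.21 ± 0.24, edgeR adjusted p = 0.000755). Its call was lost under thinning (log2 -0.88) and when 2 UMIs were required (log2 -1.09). MMD2 (log2 -1.43 ± 0.22) kept its call under these settings, CHST8, a sulfotransferase (log2 -1.61 ± 0.26), lost it when 2 UMIs were required, and MARCHF10 (log2 -1.47 ± 0.22) lost it under thinning. TRDN and DAB2 were also called on this side, but had at most 7.85 and 15.7 CPM in any OPALIN-only sum. TRDN was at 0 in 4 of the 6 sums, and the difference of DAB2 shrank to log2 -0.18 under thinning.

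**Figure D2:**
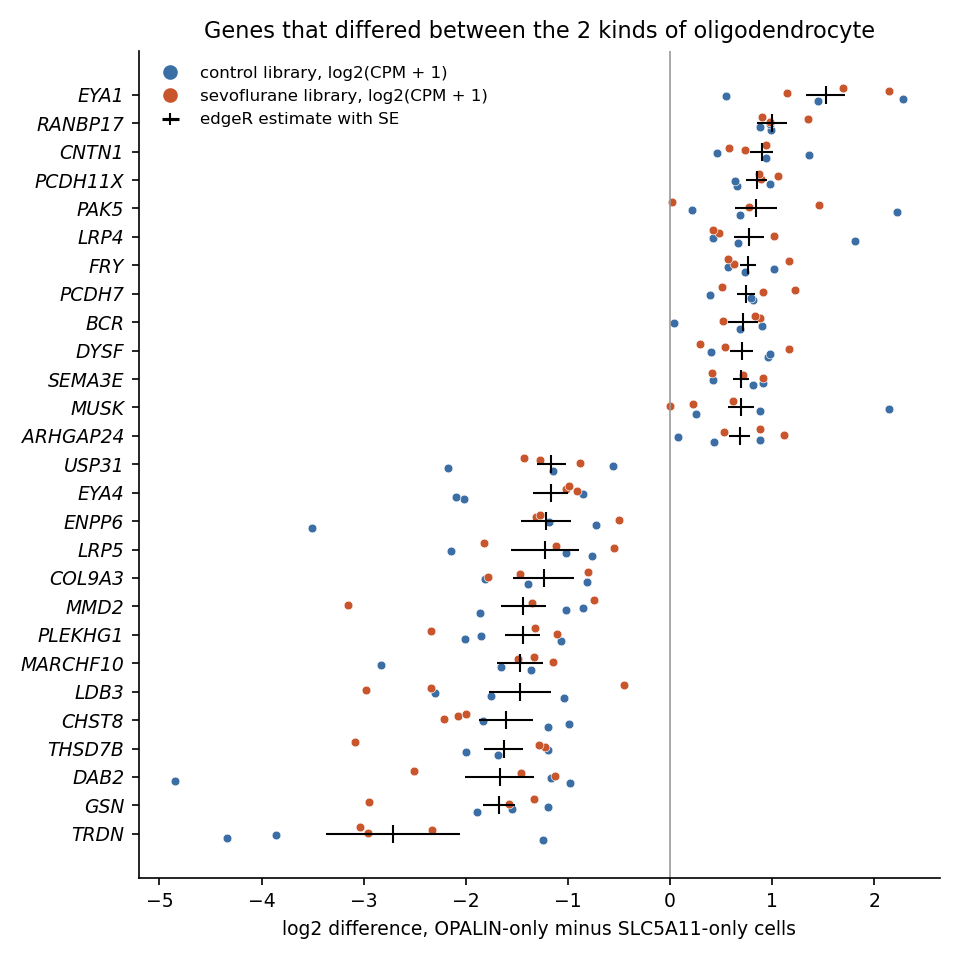
Log2 difference between OPALIN-only and SLC5A11-only oligodendrocytes for the named genes with a symbol (x axis; positive means higher in OPALIN-only cells); points are the 6 libraries on log2(CPM + 1) and black marks the edgeR estimate with its SE. The genes from USP31 down to TRDN, GSN among them, lie left of 0 in every library, and those from EYA1 down to ARHGAP24 lie right of 0, with 1 library each of PAK5, MUSK, BCR and ARHGAP24 close to 0.

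Cells with both genes and cells with neither fell on different sides of this contrast. On the log2 scale of mean levels, the cells with both genes lay nearer to the SLC5A11-only than to the OPALIN-only cells for all 30 named genes, and the cells with neither lay nearer to the OPALIN-only cells for 25 of the 30. The genes had been chosen for their difference between the single-gene kinds, and the positions are given with no test. GSN averaged 155 CPM in cells with both genes and 98.0 CPM in cells with neither, FRY 493 and 693 CPM, and EYA1 36.3 and 98.7 CPM. All OPALIN-positive and all SLC5A11-positive cells, which share the cells with both genes, lay closer together. GSN averaged 138 and 176 CPM in them, FRY 548 and 484 CPM, and EYA1 45.4 and 33.6 CPM.

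The share called over all genes was 1.76%, and the lists lay on both sides of it. None of the 4 myelin genes MBP (log2 0.02), MAG (0.19), CNP (0.03) and CLDN11 (0.12) passed, and of the 11 tested myelin protein genes 1 did: BCAS1, a marker of newly myelinating cells, which was higher in SLC5A11-only cells (log2 -0.40 ± 0.10, edgeR adjusted p = 0.0196). Of 15 tested genes of cholesterol synthesis none passed. Of 16 tested myelin lipid enzymes 2 were higher in SLC5A11-only cells, ENPP6 and the fatty-acid elongase ELOVL6 (log2 -0.66 ± 0.17). Of 8 tested markers of newly formed cells BCAS1 and ENPP6 were higher in SLC5A11-only cells, and CNKSR3 (log2 0.54) and TNS3 (log2 0.59) in OPALIN-only cells. Of 18 tested channel and transport genes 2 were higher on each side: KCNK10, a potassium channel (log2 0.87), and ABCA8, a lipid transporter (log2 0.48), in OPALIN-only cells, and ATP10B (log2 -0.51) and TF, transferrin (log2 -0.24), in SLC5A11-only cells. Of 21 tested subtype genes taken from earlier human and mouse work 1 passed, ENPP6 again. KLK6, a protease of a described mature state, stood at log2 -1.39 (edgeR adjusted p = 0.0718) and HHIP, a hedgehog-binding protein, at 0.30 (edgeR adjusted p = 0.0776).

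The calls below are named after their values were seen. Of 25 tested genes of axon contact and the cytoskeleton 3 were higher in OPALIN-only cells and 2 in SLC5A11-only cells, beside 0.766% and 0.993% of all genes. NFASC, the neurofascin of paranodal junctions, averaged 848 against 619 CPM (log2 0.46 ± 0.07, edgeR adjusted p = 8.23e-06), ANK3 differed by log2 0.25 ± 0.06, and DYSF is given above. MAP7, a microtubule-binding protein, differed by log2 -0.38 ± 0.07 and DOCK5 by -0.30 ± 0.07. ERBB4, a neuregulin receptor, averaged 2247 ± 372 against 1568 ± 250 CPM and was higher in OPALIN-only cells in 6 of 6 libraries (log2 0.51 ± 0.06, edgeR adjusted p = 2.28e-08). The transcription factors CREB5 (log2 0.33 ± 0.07) and ZNF536 (log2 0.25 ± 0.06) were higher in OPALIN-only cells, and SGK1, a kinase of growth and stress signalling, in SLC5A11-only cells (log2 -0.39 ± 0.09).

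Of 5 tested microglial genes none passed. Their median was log2 0.64, and 3 were positive while the others were negative. The 3 were PTPRC at 0.90 ± 0.38, RUNX1 at 0.87 ± 0.38 and DOCK8 at 0.64 ± 0.32. The part of microglial genes in the contrast was not tested. Of 6 tested astrocyte genes 2 were positive (median log2 -0.12), and RYR3 passed (log2 0.36). Doublet scoring marked 3.92% of OPALIN-only and 4.36% of SLC5A11-only cells. Leaving out each library in turn gave 110 to 158 calls.

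After sevoflurane NAV2, NDRG1, FKBP5 and CPQ had the smallest p-values in the oligodendrocytes, but no gene passed the test across all genes. Of 12078 genes tested on the UMIs summed per library, 0 were called by edgeR (0%), and 932 had an unadjusted p under 0.05 (7.72%). DESeq2 called 40 genes (0.48% of 8328), 16 higher (0.192%) and 24 lower (0.288%). With no filter on low counts edgeR called 22 (0.0969%), 11 in each direction (0.0485%), and with every cell thinned to 1000 UMIs it called 4 (0.04%). Of the 12078 genes 1693 did not overlap between groups (14%), 998 of them higher after sevoflurane (8.26%) and 695 lower (5.75%). In such sums a change in the mix of oligodendrocyte states and a change within each cell cannot be told apart.

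The gene with the smallest p among those higher was NAV2, neuron navigator 2, a microtubule-associated protein of outgrowing cell processes. NAV2 stood at 209, 183 and 197 CPM in the control and 539, 382 and 468 CPM in the sevoflurane oligodendrocytes. The lowest sevoflurane library was above the highest control, a 2.32-fold difference of the group levels (log2 1.22 ± 0.15, edgeR adjusted p = 0.150; DESeq2 adjusted p = 2.85e-07).

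NDRG1, a gene of myelinating glia whose loss causes a hereditary demyelinating neuropathy, stood at 438, 472 and 423 CPM in the controls and 805, 941 and 778 CPM after sevoflurane. No value of either group came near the other (1.86-fold, log2 0.89 ± 0.11, edgeR adjusted p = 0.150; DESeq2 adjusted p = 9.78e-06). PDK1, a kinase that restrains pyruvate oxidation, stood at 451, 485 and 431 CPM against 728, 794 and 878 CPM (log2 0.79 ± 0.12, edgeR adjusted p = 0.235; DESeq2 adjusted p = 0.00149). GAP43, a growth-associated membrane protein, stood at 158, 195 and 166 CPM against 314, 342 and 270 CPM (log2 0.81 ± 0.12, edgeR adjusted p = 0.235). AGBL3, a cytosolic carboxypeptidase, was at 10.4 to 14.5 CPM against 27.4 to 29.0 CPM (log2 1.15 ± 0.19, edgeR adjusted p = 0.266). In the neuron set AGBL3 averaged 10.7 against 42.1 CPM. An unnamed gene, ENSCJAG00000053493, averaged 114 against 222 CPM.

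FKBP5, the glucocorticoid-induced co-chaperone that the study is about, stood at 53.6, 40.7 and 48.7 CPM in the control and 101, 121 and 120 CPM in the sevoflurane oligodendrocytes. The groups did not overlap (2.35-fold, log2 1.23 ± 0.16, edgeR adjusted p = 0.170; DESeq2 adjusted p = 1.87e-05). With cells thinned to 1000 UMIs it was among the 3 genes called higher, with NAV2 and NDRG1 (edgeR adjusted p = 0.0456, 0.0437 and 0.0456).

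The gene with the smallest p of all was CPQ, a secreted carboxypeptidase. CPQ stood at 153, 134 and 122 CPM in the control and 57.4, 49.8 and 42.6 CPM in the sevoflurane oligodendrocytes, 0.359 times the control level with no overlap (log2 -1.48 ± 0.15, edgeR adjusted p = 0.120; DESeq2 adjusted p = 4.53e-09). It was the only gene called lower with cells thinned to 1000 UMIs (edgeR adjusted p = 0.0437).

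The other genes named for lower values follow. DPYSL5, a collapsin-response protein, averaged 37.4 ± 9.05 against 12.7 ± 2.81 CPM (log2 -1.60 ± 0.25, edgeR adjusted p = 0.235), and IFFO2, an intermediate-filament family member, 22.9 against 8.38 CPM (log2 -1.48 ± 0.22). GLRA3, a glycine receptor subunit, stood at 30.4 to 33.6 CPM against 13.9 to 15.4 CPM (log2 -1.14 ± 0.16, edgeR adjusted p = 0.218). GLRA3 also averaged lower after sevoflurane in the neuron set (73.1 against 45.6 CPM), the OPC set (27.8 against 16.1 CPM) and the astrocyte set (22.6 against 11.0 CPM). RELN, the secreted protein reelin, averaged 68.0 against 29.7 CPM in the oligodendrocytes and 182 against 84.2 CPM in the neuron set. LRIG1, an inhibitor of receptor tyrosine kinases, averaged 61.1 against 31.4 CPM in the oligodendrocytes and 1031 against 705 CPM in the astrocyte set, beside the lower astrocyte marker sums given above. GPC6, a glypican, averaged 356 against 205 CPM (log2 -0.82 ± 0.14), with 358 against 243 CPM in the astrocyte set. The remaining gene, ENSCJAG00000053567, averaged 40.2 against 13.6 CPM. DESeq2 called all 16 genes named for this comparison, and none overlapped between groups, beside 14% of all genes without overlap. The 16 had been chosen by their small edgeR p on the same sums, so neither count is independent support.

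**Figure D3:**
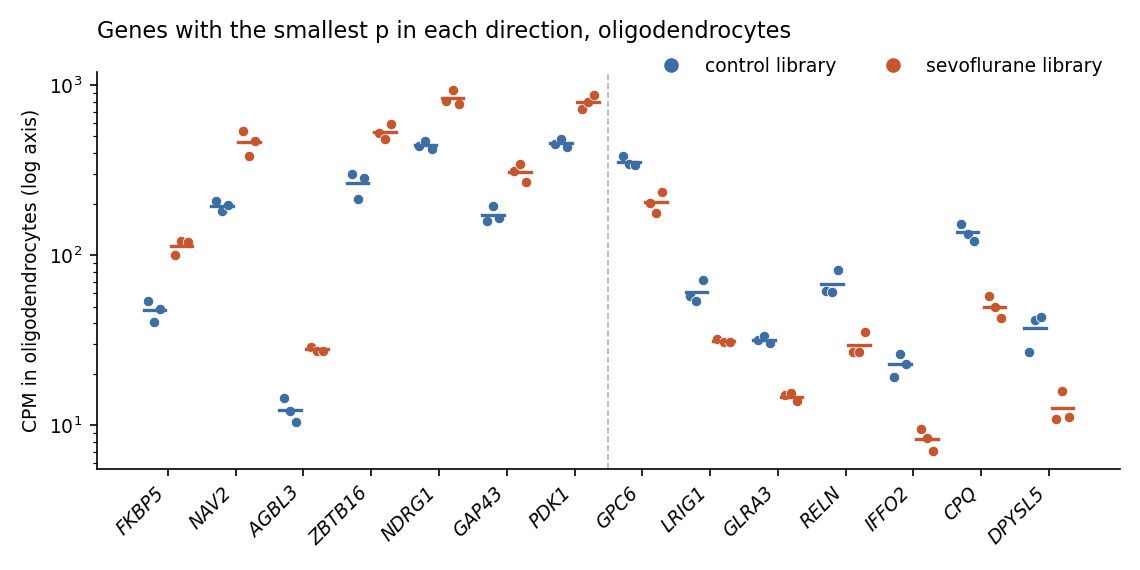
Level in the oligodendrocytes (CPM, log axis) of the 14 named genes with a symbol, 8 per direction having been chosen by the smallest p; each point is a library and each bar the mean of 3, with higher genes left and lower genes right of the dashed line. In every gene shown the control and sevoflurane libraries do not overlap, for example NAV2 at 183 to 209 against 382 to 539 CPM and CPQ at 122 to 153 against 42.6 to 57.4 CPM. Of all genes tested 14% did not overlap.

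The myelin genes themselves showed little. MBP stood at 2418, 2751 and 2690 CPM in the controls and 2285, 2767 and 2391 CPM after sevoflurane (log2 -0.10 ± 0.11), overlapping between groups. Of the 12 tested myelin protein genes none passed or separated the groups, 3 had a positive fold change, and the median was log2 -0.08, where all 12078 genes had a positive share of 51.6% and a median of 0.01. Of 19 tested cholesterol synthesis genes 10 were positive (median log2 0.00), and of 25 genes of mTOR, insulin and growth signalling 14 were (median 0.04).

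The enzymes of myelin lipids leaned lower without a call. Of 17 tested, 4 were positive and the median was log2 -0.21. FAR1, which makes fatty alcohols for plasmalogens, stood at 126, 136 and 152 CPM against 116, 108 and 92.6 CPM (log2 -0.41 ± 0.12, edgeR adjusted p = 0.466). ELOVL6, a fatty-acid elongase, averaged 102 against 70.6 CPM (log2 -0.56 ± 0.18, edgeR adjusted p = 0.511), and ELOVL7, another elongase, 15.8 against 12.2 CPM. These 3 did not overlap between groups, beside 5.75% of all genes lower without overlap, and FA2H, which hydroxylates myelin sphingolipids, overlapped (log2 -0.34 ± 0.12).

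Transcription factors of the lineage had a median of log2 0.04 with 6 of 10 positive. TCF7L2, a Wnt effector of the step to myelination, stood at 188, 197 and 189 CPM against 148, 169 and 147 CPM with no overlap (log2 -0.33 ± 0.10, edgeR adjusted p = 0.484), and ITPR2, another marker of newly formed cells, at log2 -0.31 ± 0.10. Of 8 tested genes of newly formed oligodendrocytes 2 were positive (median -0.09). Of the 25 axon-contact and cytoskeleton genes 10 were positive (median -0.06), and none passed. Higher without overlap were 3, beside 8.26% of all genes: NAV2, NFASC (log2 0.34 ± 0.12) and FRYL (log2 0.30 ± 0.12). Lower without overlap were 3, beside 5.75% of all genes. These were the adhesion molecule CADM1 (log2 -0.57 ± 0.15), the septin SEPTIN8 (log2 -0.56 ± 0.16) and DOCK10 (log2 -0.33 ± 0.12).

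The glucocorticoid response list had the highest median of the 12 lists described, log2 0.39 with 11 of 15 tested genes positive, and none passed by edgeR. This list was already known to be high in these libraries when it was chosen, so its direction is no independent evidence. Of the 15, 6 were higher without overlap, beside 8.26% of all genes, and DESeq2 called FKBP5, ZBTB16 and GLUL. GLUL, glutamine synthetase, stood at 87.1, 84.9 and 86.1 CPM in the controls and 120, 182 and 185 CPM after sevoflurane (log2 0.89 ± 0.18, edgeR adjusted p = 0.411). ZBTB16 is a transcription factor and stood at 299, 213 and 284 CPM against 523, 484 and 591 CPM (log2 0.98 ± 0.16, edgeR adjusted p = 0.266). Of the receptors, NR3C1 overlapped at 222 to 253 against 218 to 272 CPM, and NR3C2 was lower without overlap (log2 -0.29 ± 0.11).

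Stress, interferon and immediate early genes gave no call. Of 14 tested stress and disease-associated genes 5 were positive and none separated the groups (median log2 -0.09). Of 12 interferon-stimulated genes 9 were positive (75%, beside 51.6% of all genes), with a median of log2 0.20. Of the 12, 2 were higher without overlap, beside 8.26% of all genes. IFIT2, an interferon-induced RNA-binding protein, averaged 7.35 ± 1.90 against 13.7 ± 1.96 CPM (log2 0.89 ± 0.28, edgeR adjusted p = 0.503). Of 20 immediate early genes 5 were abundant enough to test and none was positive. NR4A3, an orphan nuclear receptor, stood at 7.23, 13.8 and 13.9 CPM against 5.13, 2.49 and 1.09 CPM (log2 -2.03 ± 0.51, edgeR adjusted p = 0.454) and NR4A2 at log2 -0.85 ± 0.28. NR4A3 was scarce after sevoflurane, and a gene could enter the test through its control level alone. The signs of these 5 genes are therefore a description. The 9 tested astrocyte markers had a median of log2 -0.42 with 1 positive, and DESeq2 called the bicarbonate transporter SLC4A4 lower (131 against 72.0 CPM).

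**Figure D4:**
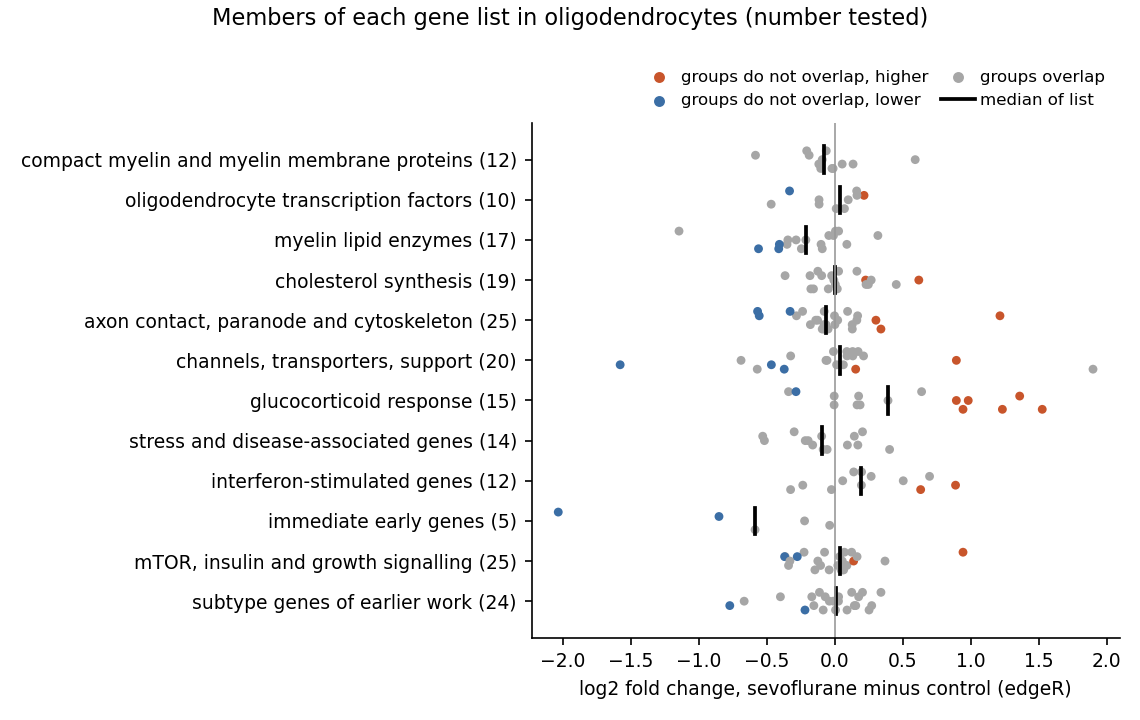
Log2 fold change after sevoflurane (x axis) of each tested member of 12 gene lists in the oligodendrocytes, with the number tested in brackets; each point is a gene, coloured where the 3 sevoflurane libraries lie wholly above or below the 3 controls, and each black line is the median of a list. The medians run from -0.59 (immediate early genes, 5 tested) to 0.39 (glucocorticoid response, 15 tested), and those of myelin proteins and cholesterol synthesis lie near 0.

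Whether OPALIN-only and SLC5A11-only cells responded differently was tested as an interaction within libraries. Of 9265 genes 0 were called by edgeR (0%) and 0 by DESeq2, with 346 at an unadjusted p under 0.05 (3.73%). Without sevoflurane replicate 3 edgeR called 3, and with no filter on low counts 1 (0.00467%). NAV2 went from 165 ± 19.2 to 553 ± 26.1 CPM in OPALIN-only cells and from 208 ± 23.8 to 457 ± 102 CPM in SLC5A11-only cells, a difference in log2 response of 0.68 ± 0.21 that did not pass (edgeR adjusted p = 1.00). CPQ went from 113 ± 31.7 to 66.6 ± 23.6 CPM and from 142 ± 8.36 to 41.8 ± 1.85 CPM (difference 0.97 ± 0.32, edgeR adjusted p = 1.00). NDRG1 (difference -0.04 ± 0.16), FKBP5 (-0.02 ± 0.40) and PDK1 (-0.10 ± 0.17) lay near 0. A p that misses the threshold does not show equal responses, and the OPALIN-only sums were small.

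The response of the oligodendrocytes was then compared with that of their precursors in the same libraries. The OPC set held 1589 cells and the astrocyte set 3839, each chosen by 8 genes of that cell type. Barcodes that were also oligodendrocytes were left out of these sets and of the neuron set. Of 11904 genes 7 differed in response between oligodendrocytes and the OPC set (0.0588%), 2 with a higher response in oligodendrocytes (0.0168%) and 5 with a lower one (0.042%). At an unadjusted p under 0.05 stood 764 (6.42%), and DESeq2 called 5 (0.042%), 0.0168% of all higher and 0.0252% lower. NAV2 was one of them: in the OPC set it stood at 1091, 1215 and 897 CPM in the controls and 844, 939 and 1084 CPM after sevoflurane, overlapping, so that the responses differed by log2 1.37 ± 0.20 (edgeR adjusted p = 0.00722). ADAM12, a membrane metalloprotease, was the other, at 266, 148 and 88.7 CPM against 495, 421 and 416 CPM in oligodendrocytes and 639 against 657 CPM on average in the OPC set (difference 1.46 ± 0.21, edgeR adjusted p = 0.00722).

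In the other direction lay CPQ, ABCG1, MYO16, DSCAML1 and KCNH8. CPQ averaged 98.0 ± 31.2 CPM in the control and 105 ± 12.7 CPM in the sevoflurane OPC set, and the responses differed by log2 -1.58 ± 0.22 (edgeR adjusted p = 0.00722). ABCG1, a cholesterol exporter, moved apart in the 2 sets: 86.1, 84.6 and 79.6 CPM against 66.3, 58.7 and 59.3 CPM in oligodendrocytes, and 105, 82.5 and 85.7 CPM against 149, 152 and 162 CPM in the OPC set (difference -1.22 ± 0.18, edgeR adjusted p = 0.00722). DSCAML1, a synaptic adhesion molecule, averaged 617 against 297 CPM in oligodendrocytes and 898 against 852 CPM in the OPC set (-0.98 ± 0.16, edgeR adjusted p = 0.0207). MYO16, an unconventional myosin, averaged 68.0 against 36.7 CPM and 472 against 579 CPM (-1.22 ± 0.20, edgeR adjusted p = 0.0215). KCNH8, a potassium channel, was scarce in oligodendrocytes, at 7.23, 19.9 and 17.4 CPM against 6.49, 3.98 and 4.37 CPM, and averaged 193 against 203 CPM in the OPC set (-1.63 ± 0.28, edgeR adjusted p = 0.0308). Its call was lost under DESeq2 and without the marked doublets.

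These calls rested on few libraries. Without control replicate 1, 2 or 3 the count fell from 7 to 1, 3 and 1, and without sevoflurane replicate 1 or 3 it was 12 and 20. ABCG1, MYO16, DSCAML1 and KCNH8 lost their calls without any 1 of the 3 controls, DSCAML1 and KCNH8 also without sevoflurane replicate 1, ABCG1 also under DESeq2, and ADAM12 without control replicate 2 or 3. NAV2 lost its call without control replicate 1 or 2 and CPQ without control replicate 1 or 3, while their differences stayed between 1.21 and 1.72 and between -1.77 and -1.32 in all alternatives run.

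Against the astrocyte set 4 of 13136 genes differed in response (0.0305%). NAV2 averaged 603 ± 18.2 against 650 ± 61.3 CPM in astrocytes (difference 1.09 ± 0.16, edgeR adjusted p = 0.0482) and CPQ 104 against 128 CPM (difference -1.79 ± 0.21, edgeR adjusted p = 0.0230). The others were ENSCJAG00000053567 (difference -2.04 ± 0.25), which averaged 32.6 against 44.1 CPM in astrocytes, and ENSCJAG00000054698 (difference 1.40 ± 0.20). The latter had 208 CPM in the oligodendrocytes of sevoflurane replicate 3 and 14.4 to 48.0 CPM in the other libraries. The count fell to 0 without control replicate 1, control replicate 2, sevoflurane replicate 1 or sevoflurane replicate 3, and to 1 without control replicate 3. Over all alternatives the NAV2 difference stayed between 0.99 and 1.35 and that of CPQ between -1.96 and -1.58.

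For the remaining named genes no difference in response was shown. FKBP5 averaged 49.4 against 114 CPM in the OPC set and 78.9 against 165 CPM in the astrocyte set, and the oligodendrocyte response differed from these by log2 0.02 ± 0.22 and 0.14 ± 0.23. NDRG1 was low elsewhere, at 33.2 against 54.0 CPM in the OPC set and 19.8 against 24.6 CPM in the astrocyte set (differences 0.18 ± 0.27 and 0.52 ± 0.30). GAP43 averaged 73.9 against 58.9 CPM in the OPC set (difference 1.15 ± 0.22, edgeR adjusted p = 0.0685).

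**Figure D5:**
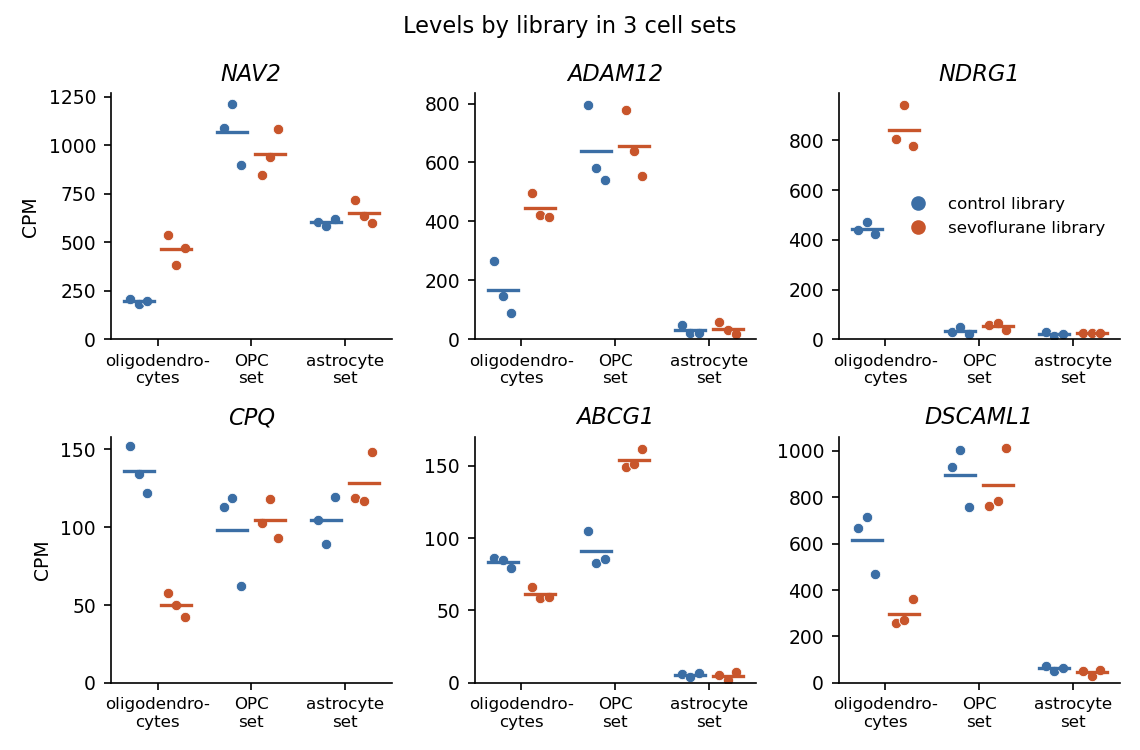
Levels (CPM, axes starting at 0) of 6 genes in the oligodendrocytes, the OPC set and the astrocyte set; each point is a library and each bar the mean of 3. NAV2 and ADAM12 separate the groups in oligodendrocytes and not in the OPC set, CPQ is lower after sevoflurane in oligodendrocytes and overlaps in the OPC set, and ABCG1 is lower in oligodendrocytes and higher in the OPC set.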

How the data were processed

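Single-cell RNA was counted in 6 hippocampal libraries, 3 control and 3 sevoflurane. The authors deposited raw UMI counts per gene and barcode, made with Cell Ranger 6.1.1 per the file headers. CASAVA 1.8, Cell Ranger and Seurat are named in the submitters' processing notes. The genome build is not given in the sources used here. Of 29320 genes, 15188 had a symbol in the files and 1347 more were matched by ID.

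The members and lists were chosen with earlier results of these data known. UMIs of the members were summed per library (17062639 in all) and tested with edgeR 4.0.16 (filterByExpr, TMM, quasi-likelihood F test, Benjamini-Hochberg adjustment) in R 4.3.3, DESeq2 1.42.0 being an alternative. Contrasts between cell sets kept the library as a block. Doublets were scored with scrublet in scanpy 1.11.5 and marked, not removed, at the median of the 6 automatic thresholds, a choice made after these were seen. On simulated counts of the treatment comparison (12078 genes) 58% of 2-fold and 98% of 4-fold changes were recovered. For the interaction of treatment with OPALIN-only or SLC5A11-only kind (9275 genes) 29% and 73% were recovered. In each simulation 100 genes were changed at each fold. All were drawn from the more abundant genes, so recovery of scarce genes was not measured. The simulations gave 160 calls for the treatment and 111 for the interaction, whereas edgeR called no gene in either real comparison. The Benjamini-Hochberg adjustment is stricter when fewer genes have small p-values. Recovery with few changed genes was not measured, so these percentages can overstate what the real comparisons would have recovered.

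Genes named for the treatment were those changed and not overlapping, filled to 8 per direction by the smallest p, plus FKBP5 and up to 4 members per list. Of the axon-contact list all genes without overlap are named. For OPALIN-only against SLC5A11-only cells they were up to 15 per direction with the largest fold, an average log2 CPM no lower than 4, and 1 sign in all 6 libraries. For responses between cell sets they were up to 5 per direction. Alternatives were other normalization, no filter, no doublets, stricter marker limits, thinning, a replicate block and leaving out each library. Whether same-numbered libraries were handled as pairs could not be told from 3 libraries per group.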

Additional observations from a re-analysis of the deposited data

Results flagged for a closer look

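The sevoflurane response of the oligodendrocytes differed from that of another cell set of the same libraries, by a test of the difference itself, for the genes below, given as differences in log2 response. Against the OPC set these were ADAM12 (1.46), NAV2 (1.37), KCNH8 (-1.63), CPQ (-1.58), MYO16 (-1.22), ABCG1 (-1.22) and DSCAML1 (-0.98). Against the astrocyte set they were ENSCJAG00000054698 (1.40), NAV2 (1.09), ENSCJAG00000053567 (-2.04) and CPQ (-1.79). Each lost its call when at least 1 of the libraries was left out.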

How the results depend on the processing

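For sevoflurane against control, edgeR called 0 genes, DESeq2 40, edgeR without a filter on low counts 22 and with cells thinned to 1000 UMIs 4. For OPALIN-only against SLC5A11-only cells the 163 calls became 87 under DESeq2, 77 under thinning and 73 with at least 2 UMIs, and 110 to 158 when a library was left out. Without a filter that contrast gave 31 genes higher in OPALIN-only and 153 in SLC5A11-only cells, beside 71 and 92. The difference in response between these kinds gave 1 call without a filter, 4 with at least 2 UMIs, and 0 to 3 with a library left out. Against the OPC set 7 calls became 74 without a filter and 1 to 20 with a library left out, and against the astrocyte set 4 became 111 and 0 to 4. The difference in the share of barcodes ran from -1.37 to 2.19 percentage points, turning sign without control replicate 3 (-1.37) or sevoflurane replicate 3 (-0.0992). That in the OPALIN share was -0.353 without thinning and ran from -1.24 to 1.55, being -1.24 without control replicate 3 and -0.699 without sevoflurane replicate 3. The SLC5A11 share difference ran from -13.3 to -7.99 with a library left out and was -7.44 at 2000 UMIs. The cause of these shifts was not tested. Of the genes named for their p, fold or response, none turned sign; the genes named from lists were not recomputed.

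The replicate block called 0 genes for sevoflurane against control. The deviations of same-numbered libraries correlated at -0.163, -0.0293 and -0.224. With 3 libraries per group these values cannot show whether same-numbered libraries shared a batch. The OPALIN-only sums held 71 to 177 cells per library.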
